A study of Mus musculus with 16 samples.

Results

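Mature neutrophil genes were followed in CD11b+ spleen cells of mice given allogeneic cells, CTLA4-Ig and erythropoietin (EPO). The 8 genes, *S100a8*, *S100a9*, *Camp*, *Mmp8*, *Mmp9*, *Cxcr2*, *Csf3r* and *Ly6g*, were chosen by name as genes of later neutrophil stages, with earlier results of these data known. They are 8 of the 734 genes of the table. The NanoString nCounter Myeloid Innate Immunity panel counts mRNA molecules with colour-coded probes, without amplification. There were 16 wild type C57BL/6 (B6) mice in 4 groups of 4, matched for age and sex, neither of which was given in the sources used here. Each sample is numbered within its group and taken here as 1 mouse, which the labels do not spell out. Naive mice were untreated. The other 3 groups all received BALB/c spleen cells (20 x 10⁶ per mouse), which differ from B6 at the major histocompatibility complex. One of these groups had the cells alone and is called BALB/c cells here. Another also had CTLA4-Ig (150 µg i.p. on day 2), which binds CD80 and CD86 and so keeps T cells from receiving the CD28 signal. The last had this CTLA4-Ig dose and recombinant EPO (epoetin alfa, 5000 U/kg i.p. daily) and is called CTLA4-Ig/EPO. Spleens were taken on day 7 and CD11b+ cells were obtained by positive selection, whereas the results text of the study describes the cells as CD11b+CD11c-. The labels call the injected cells depleted of T cells and give an i.p. injection, where the study's results text gives an i.v. one. In one protocol field of the labels, the letter codes of naive mice and of mice given BALB/c cells alone are the other way round from the sample titles, so every comparison that uses naive mice or mice given BALB/c cells alone rests on titles and treatment fields. Of the comparisons below, the one of CTLA4-Ig/EPO with CTLA4-Ig uses neither group.

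Neutrophils mature in the bone marrow and fill their granules in sequence. Primary granule proteins are made first, then those of the secondary and gelatinase granules, while the chemokine receptor gene *Cxcr2* marks the last stages. Neutrophils carry CD11b, so a positive selection on CD11b takes them along with monocytes and macrophages. *S100a8* and *S100a9* are also made by monocytes, whereas *Ly6g* is the usual surface marker of mouse neutrophils.

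All 8 genes were detected in all 16 mice. The recovered molecule counts totalled between 562760 and 912328 per mouse, and the lowest count of any of the 8 genes was 44, for *Ly6g* in BALB/c cells mouse 2, so no value was near the floor of the table. The 8 genes held 49.6%, 30.7%, 27.7% and 33.7% of all counts in naive mice 1 to 4. With BALB/c cells they held 6.72%, 2.54%, 3.87% and 2.33%. With CTLA4-Ig the shares were 4.70%, 4.18%, 2.58% and 2.91%. They were 7.98%, 15.9%, 10.4% and 12.1% with CTLA4-Ig/EPO, so naive mice were highest, the EPO group came next without overlap, and the other groups overlapped. Most of each share came from *S100a8* and *S100a9*, which held between 25.1% and 46.0% of counts in naive mice and between 7.19% and 14.3% with CTLA4-Ig/EPO. Counts of different probes are not calibrated against each other, so levels are compared below between mice and not between genes. In these bulk samples, fewer neutrophils and less RNA per neutrophil cannot be told apart.

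**Figure D1:**
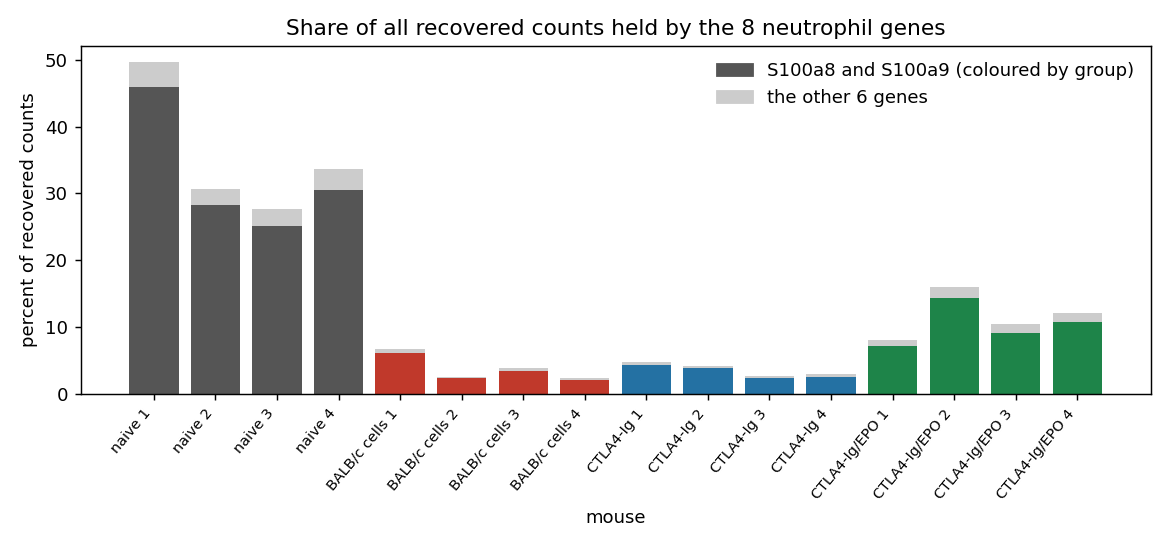
Percent of all recovered counts in each of the 16 mice (x axis) that fell on *S100a8* and *S100a9* (coloured by group) and on the other 6 neutrophil genes (light grey). The 8 genes together held at least 27.7% in naive mice and at most 6.72% in mice given BALB/c cells alone.

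The deposited values are on a log2 scale and were scaled by the authors with one factor per mouse, between 1.27 and 1.85 in naive mice and between 0.560 and 0.791 in the others. On this scale the median over all 734 genes was lower by a log2 difference of -0.65 in BALB/c cells than in naive mice, and by -0.74 in CTLA4-Ig/EPO than in naive mice. Differences from naive mice are therefore read against those medians. Naive mouse 1 had the highest value of all 8 genes among naive mice, BALB/c cells mouse 1 the highest of 7 of them in its group, and CTLA4-Ig mouse 2 stood above its group in *Cxcr2* and *Csf3r*. CTLA4-Ig mouse 2 was also the highest of its group in *Mmp8* and *Mmp9*.

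*S100a8* and *S100a9* encode the calcium-binding proteins of the neutrophil cytosol, which pair to form calprotectin. They are neighbours on the chromosome, with 0 genes between them in the RefSeq gene table. *S100a8* had log2 values of 18.29, 17.04, 16.71 and 17.09 in naive mice and 13.85, 12.42, 13.16 and 12.43 with BALB/c cells. It had 13.26, 13.18, 12.57 and 12.62 with CTLA4-Ig, and 13.78, 15.01, 14.28 and 14.57 with CTLA4-Ig/EPO. All naive mice were above all others, and the EPO group was above the CTLA4-Ig group without overlap, although its lowest mouse was below BALB/c cells mouse 1. *S100a9* had 18.57, 17.35, 16.98 and 17.43 in naive mice and 14.12, 12.71, 13.17 and 12.40 with BALB/c cells. It had 13.56, 13.48, 12.61 and 12.72 with CTLA4-Ig, and 14.29, 15.46, 14.47 and 14.75 with CTLA4-Ig/EPO. For *S100a9* the EPO group was above every mouse of both groups without EPO and below every naive mouse.

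*Camp*, *Mmp8* and *Mmp9* encode granule proteins. *Camp* is the precursor of the antimicrobial cathelicidin peptide of secondary granules, and its log2 values were 15.32, 13.92, 13.74 and 14.30 in naive mice and 11.31, 9.83, 10.77 and 9.83 with BALB/c cells. They were 10.83, 10.35, 10.13 and 10.26 with CTLA4-Ig, and 11.59, 12.92, 12.24 and 12.58 with CTLA4-Ig/EPO. The 4 EPO mice were thus above all 8 mice given cells without EPO and below all naive mice. *Mmp8*, the collagenase of secondary granules, had 10.87, 9.96, 9.58 and 10.16 in naive mice and 7.54, 6.57, 6.92 and 6.51 with BALB/c cells. It had 6.91, 7.33, 6.52 and 6.61 with CTLA4-Ig, and 7.20, 7.94, 7.31 and 7.51 with CTLA4-Ig/EPO. Here CTLA4-Ig mouse 2 lay within the range of the EPO group, so these groups overlapped. *Mmp9*, the gelatinase of gelatinase granules, had 11.12, 10.79, 10.65 and 10.73 in naive mice and 6.62, 5.92, 6.70 and 6.11 with BALB/c cells. It had 6.42, 6.84, 6.24 and 6.31 with CTLA4-Ig, and 6.97, 7.30, 7.10 and 7.27 with CTLA4-Ig/EPO. Its values in the EPO group were close together and above all mice given cells without EPO.

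*Cxcr2*, *Csf3r* and *Ly6g* encode surface proteins. *Cxcr2*, the receptor for neutrophil-attracting CXC chemokines, had log2 values of 11.55, 10.96, 10.90 and 11.28 in naive mice and 6.34, 5.71, 5.20 and 5.56 with BALB/c cells. It had 6.23, 7.32, 5.85 and 6.16 with CTLA4-Ig, and 6.84, 6.74, 6.73 and 6.44 with CTLA4-Ig/EPO. CTLA4-Ig mouse 2 was above all 4 EPO mice. *Csf3r*, the receptor for granulocyte colony-stimulating factor, had 12.65, 12.27, 12.55 and 12.63 in naive mice and 7.69, 7.30, 7.40 and 7.41 with BALB/c cells. It had 7.53, 8.51, 7.45 and 7.62 with CTLA4-Ig, and 7.97, 8.30, 8.24 and 8.25 with CTLA4-Ig/EPO. Again CTLA4-Ig mouse 2 was above every EPO mouse, while the other 3 CTLA4-Ig mice were below them. *Ly6g*, the surface marker, had 10.27, 8.98, 8.23 and 9.01 in naive mice and 5.95, 5.06, 5.76 and 5.03 with BALB/c cells. It had 5.65, 5.30, 4.94 and 5.03 with CTLA4-Ig, and 5.31, 6.76, 6.08 and 6.43 with CTLA4-Ig/EPO. CTLA4-Ig/EPO mouse 1 lay within the range of the CTLA4-Ig group, and naive mice varied most in this gene (SD 0.85, n = 4).

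**Figure D2:**
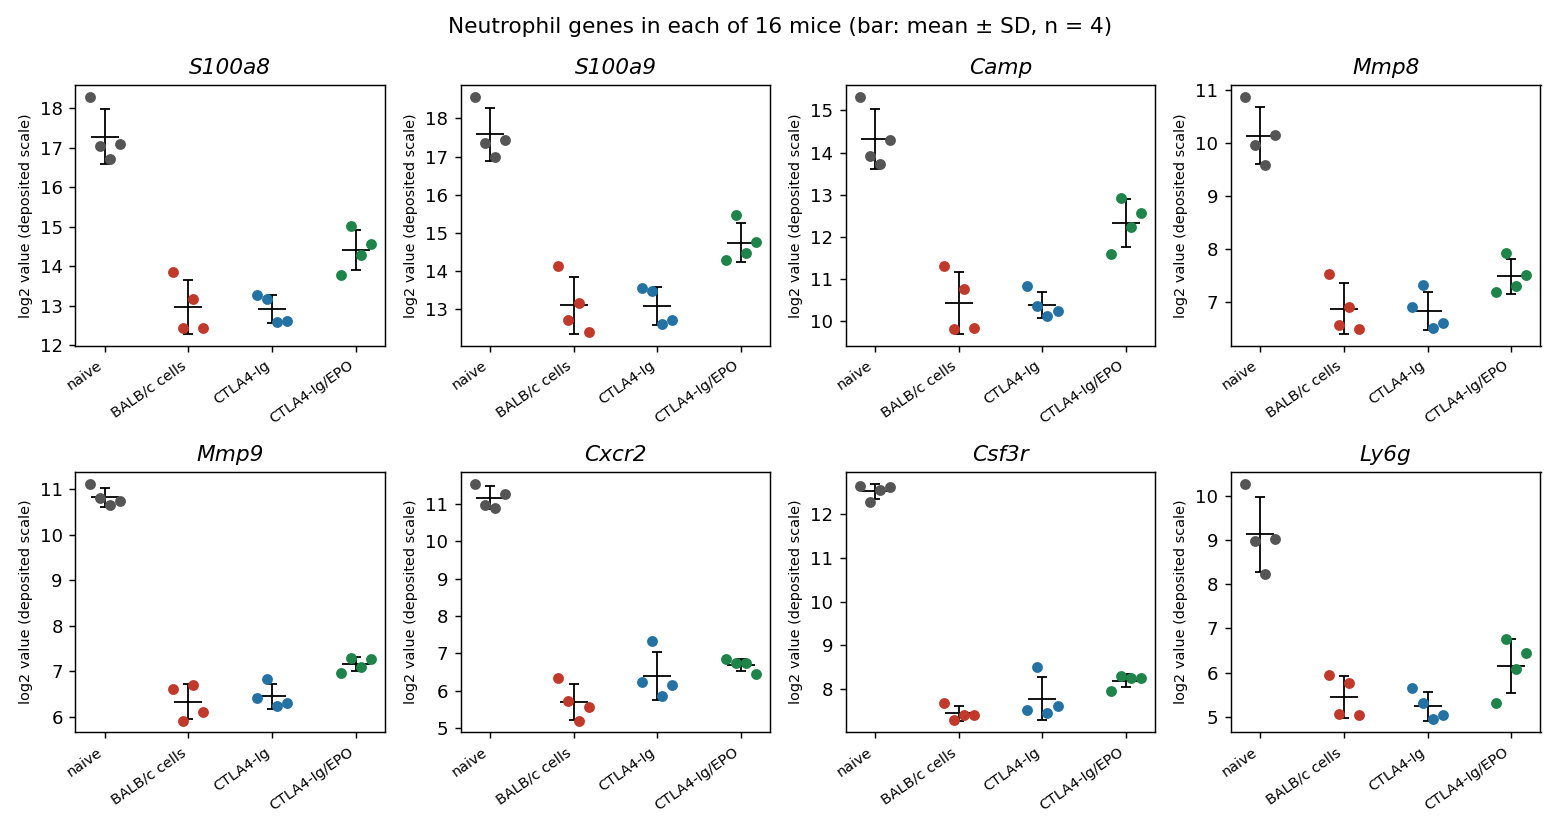
Deposited log2 value (y axis) of each neutrophil gene in each mouse, by group (x axis), with the mean and SD of 4 mice as bars. Naive mice lie above all other mice for all 8 genes, and CTLA4-Ig mouse 2 is the high blue point for *Cxcr2* (7.32) and *Csf3r* (8.51).

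The order of the group means was naive, CTLA4-Ig/EPO, then the groups without EPO, for all 8 genes. Genes are called different where the p-value of limma, a linear model fitted to all genes at once, is below 0.05 after Benjamini-Hochberg adjustment over the 734 genes. The limma F-test over the 4 groups called 8 of the 8 genes, where it called 85.3% of all genes, so this count says little about these genes. The lower end of the order, BALB/c cells and CTLA4-Ig, did not differ by test for any of the 8, as given below, and CTLA4-Ig/EPO was not tested against BALB/c cells alone.

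The first comparison asked what the transfer of BALB/c cells alone went with. All 8 genes were lower with BALB/c cells than in naive mice, and for all 8 the groups did not overlap. Over all genes, 58.4% were called lower and 51.1% were lower without overlap, so the count of 8 is read against a background in which most genes fell. The median log2 difference of the 8 genes was -4.40, against -0.65 over all genes. The receptor genes fell furthest, and *Cxcr2* differed by -5.47 on the log2 scale (SE 0.29, limma adjusted p = 6.51e-10). *Csf3r* differed by -5.07 (SE 0.20, adjusted p = 7.27e-11). The cytosolic pair fell as well. *S100a9* differed by -4.48 (SE 0.41, adjusted p = 1.79e-07). *S100a8* differed by -4.31 (SE 0.38, adjusted p = 1.34e-07). Both were lower in every mouse given BALB/c cells than in any naive mouse. *Mmp9* differed by -4.48 (SE 0.18, adjusted p = 8.12e-11). *Camp* differed by -3.88 (SE 0.40, adjusted p = 6.22e-07). The surface marker fell less than the receptor genes. *Ly6g* differed by -3.67 (SE 0.39, adjusted p = 1.06e-06). The smallest difference was that of *Mmp8*, -3.26 (SE 0.29, adjusted p = 1.36e-07). Without naive mouse 1, all 8 were still called lower, with a median of -4.06. The direction held for all 8 genes under each scaling tried, while the size did not. Their median was -3.67 with each mouse centred on its median, -3.31 per total recovered count, -3.90 per total count without the 8 genes and -2.97 after quantile normalization. The order of the genes changed too, with *S100a8* at -2.57 and *Ly6g* at -2.91 after quantile normalization. Over all genes 87 were called higher and 429 lower as deposited, against 242 and 196 after centring, 251 and 192 after quantile normalization, 334 and 132 per total count, and 186 and 253 per total count without the 8 genes.

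The ratio of a gene to *Ly6g* within a mouse does not depend on the scaling factor and tells whether the genes changed unequally. Against *Ly6g*, *Cxcr2* fell further by a log2 ratio difference of -1.80 (SE 0.46, limma adjusted p = 0.000512) and *Csf3r* by -1.40 (SE 0.45, adjusted p = 0.00397). They were 2 of the other 7 genes called lower, where 0.546% of 733 genes were. In either direction 693 of the 733 were called, since *Ly6g* itself differed by -3.67, against a median of -0.65 over all genes. The low share is therefore set by the denominator, and the count says only that these 2 genes fell further than *Ly6g*. The ratio of *Camp* to *Ly6g* differed by -0.21 (SE 0.38, adjusted p = 0.591) and that of *Mmp8* by 0.41 (SE 0.40, adjusted p = 0.309). Without naive mouse 1, whose *Ly6g* was highest, 4 of the 7 were called, with *S100a9* at -0.86 (adjusted p = 0.0313) and *Mmp9* at -1.09 (adjusted p = 0.00920) added. Without BALB/c cells mouse 1, *S100a9* was added alone, at -0.98 (adjusted p = 0.0295). Relative to *Csf3r* in place of *Ly6g*, 5 of 7 genes were called higher, where 99.5% of all genes were, so this count says little about them.

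The second comparison asked what CTLA4-Ig added to BALB/c cells. None of the 8 genes was called by limma, where 0% of all genes were (0 of 734), and 9.54% of all genes (70) passed an unadjusted p threshold of 0.05. An unmoderated test of each gene alone, the methods' t-test, which they give for comparisons of 2 groups in general and not for these data, passed 76 genes, 0 of the 8 among them. Of the 8 genes, *Cxcr2* alone passed the unadjusted threshold with limma, with a log2 difference of 0.69 (SE 0.29, limma unadjusted p = 0.0313, adjusted p = 0.523), and its groups overlapped. The other differences lay between -0.22 for *Ly6g* and 0.33 for *Csf3r*. Without CTLA4-Ig mouse 2 the difference was 0.38 for *Cxcr2* and 0.09 for *Csf3r*. The 95% intervals ran from -0.88 to 0.76 for *S100a8*, from -0.89 to 0.80 for *Camp* and from -0.28 to 0.51 for *Mmp9*.

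The third comparison asked what EPO added to CTLA4-Ig. *Camp*, *S100a9*, *S100a8* and *Mmp9* rose, 4 of the 8 genes, and for the same 4 the groups did not overlap. Over all genes 22.8% were called higher and 21.3% were higher without overlap. On the deposited scale *Camp* rose most, by a log2 difference of 1.94 (SE 0.40, limma adjusted p = 0.000782), a fold of 3.84. *S100a9* rose by 1.65 (SE 0.41, adjusted p = 0.00354), a fold of 3.14. The rise of its neighbour was smaller. *S100a8* rose by a fold of 2.83 (log2 95% interval from 0.68 to 2.32, adjusted p = 0.00429). *Mmp9* rose by 0.71 (SE 0.18, adjusted p = 0.00494), a fold of 1.63. All 4 were higher in 4 of 4 EPO mice than in any CTLA4-Ig mouse. After quantile normalization *S100a9* (2.32) rose more than *Camp* (1.96).

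The other 4 genes did not pass the test. *Ly6g* had a log2 difference of 0.92 (SE 0.39, limma adjusted p = 0.0655), with a 95% interval from 0.07 to 1.76. *Mmp8* had 0.65 (SE 0.29, adjusted p = 0.0743). The receptor genes differed least. *Csf3r* had 0.41 (SE 0.20, adjusted p = 0.0917). *Cxcr2* had 0.30 (SE 0.29, adjusted p = 0.427). CTLA4-Ig mouse 2 bears on these values. Without it, 7 of the 8 genes were called, with *Csf3r* at 0.66 (adjusted p = 0.000702), *Mmp8* at 0.81 (adjusted p = 0.0384) and *Cxcr2* at 0.61 (adjusted p = 0.0440). *Ly6g* was called without CTLA4-Ig/EPO mouse 1 (1.19, adjusted p = 0.0213). In a fit of only these groups *Ly6g* (adjusted p = 0.0360) and *Mmp8* (adjusted p = 0.0383) were called as well. The median log2 difference of the 8 genes was 0.81, against -0.07 over all genes, and it was 0.61 after centring, 0.58 after quantile normalization, 0.91 per total count and 1.04 per total count without the 8 genes. Between 4 and 7 of the 8 were called higher under these scalings and 0 were called lower. Over all genes 167 were called higher and 208 lower as deposited, against 126 and 276 after centring, 184 and 146 per total count, and 231 and 131 per total count without the 8 genes.

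Relative to *Ly6g*, the log2 ratio of *Camp* was higher with EPO by 1.03 (SE 0.38, limma adjusted p = 0.0324), 1 of the other 7 genes, where 4.37% of genes were called higher. This share too depends on the denominator, since *Ly6g* itself differed by 0.92, against a median of -0.07 over all genes. The ratio of *Camp* stayed between 0.99 and 1.05 when each of the 8 mice of these groups was left out in turn. Its call was kept only without CTLA4-Ig/EPO mouse 1 (adjusted p = 0.0237), and adjusted p reached 0.0758 without CTLA4-Ig mouse 2. The call was kept in a fit of only these groups (adjusted p = 0.0284) and not with the replicate number as a block (adjusted p = 0.0712). Relative to *Csf3r* in place of *Ly6g*, *Camp* differed by 1.53 (adjusted p = 0.00192), *S100a9* by 1.24 (adjusted p = 0.00672) and *S100a8* by 1.09 (adjusted p = 0.0110), 3 of 7 genes called higher, where 13% of all genes were. The ratio of *Cxcr2* to *Csf3r* differed by -0.11 (SE 0.23, adjusted p = 0.701).

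**Figure D3:**
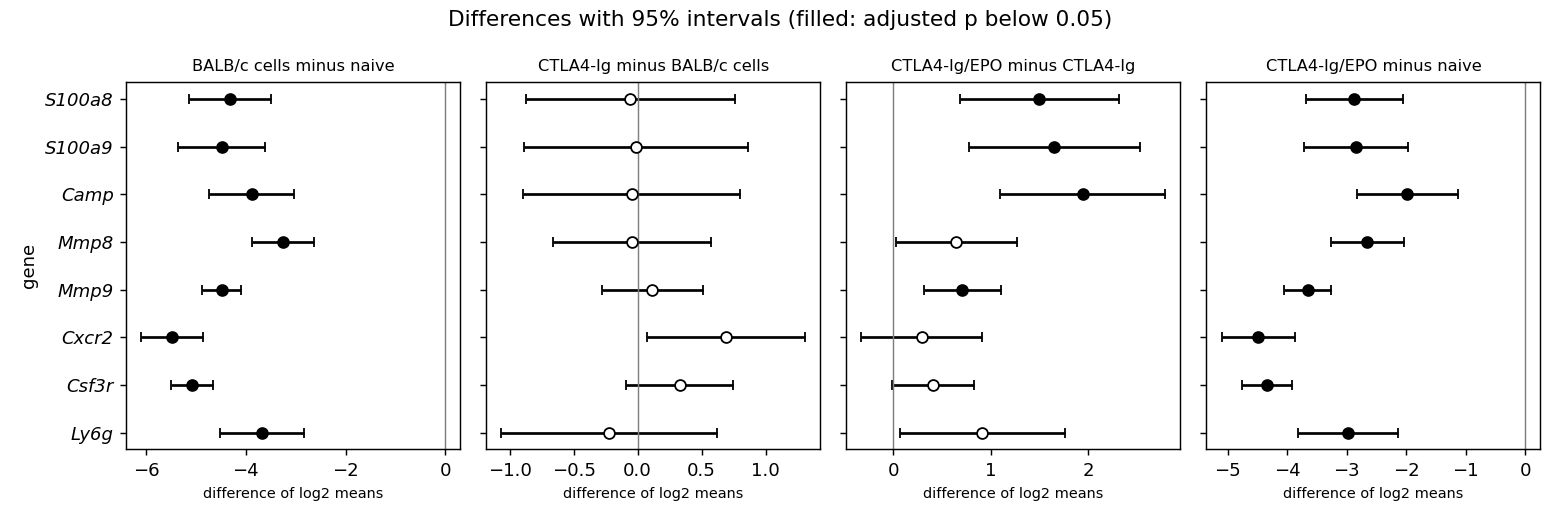
Difference of log2 group means (x axis) with its 95% interval for each gene (y axis) in the 4 comparisons, each panel on its own scale, with filled points for an adjusted p below 0.05. All 8 genes are lower than in naive mice, and with EPO the filled points are *S100a8*, *S100a9* (1.65), *Camp* (1.94) and *Mmp9* (0.71).

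The last comparison set the EPO group against naive mice, which also serve in the first comparison. All 8 genes were lower in the EPO group and did not overlap, where 61.7% of all genes were called lower and 54.2% were lower without overlap. On the deposited scale *Camp* was nearest to naive mice, with a log2 difference of -1.99 (SE 0.40, limma adjusted p = 0.000431), and *Cxcr2* furthest, with -4.48 (SE 0.29, adjusted p = 5.12e-09). *S100a8* differed by -2.87 and *S100a9* by -2.84, against a median over all genes of -0.74. The difference of *Camp* did not pass per total recovered count (-0.79, adjusted p = 0.0552), nor did that of *S100a9* after quantile normalization (-0.45, adjusted p = 0.296), where *S100a9* and *S100a8* (-0.81) were nearer to naive mice than *Camp* (-1.15). Over all genes 67 were called higher and 453 lower as deposited, against 168 and 249 after centring, 223 and 191 after quantile normalization, 340 and 90 per total count, and 231 and 189 per total count without the 8 genes.

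**Figure D4:**
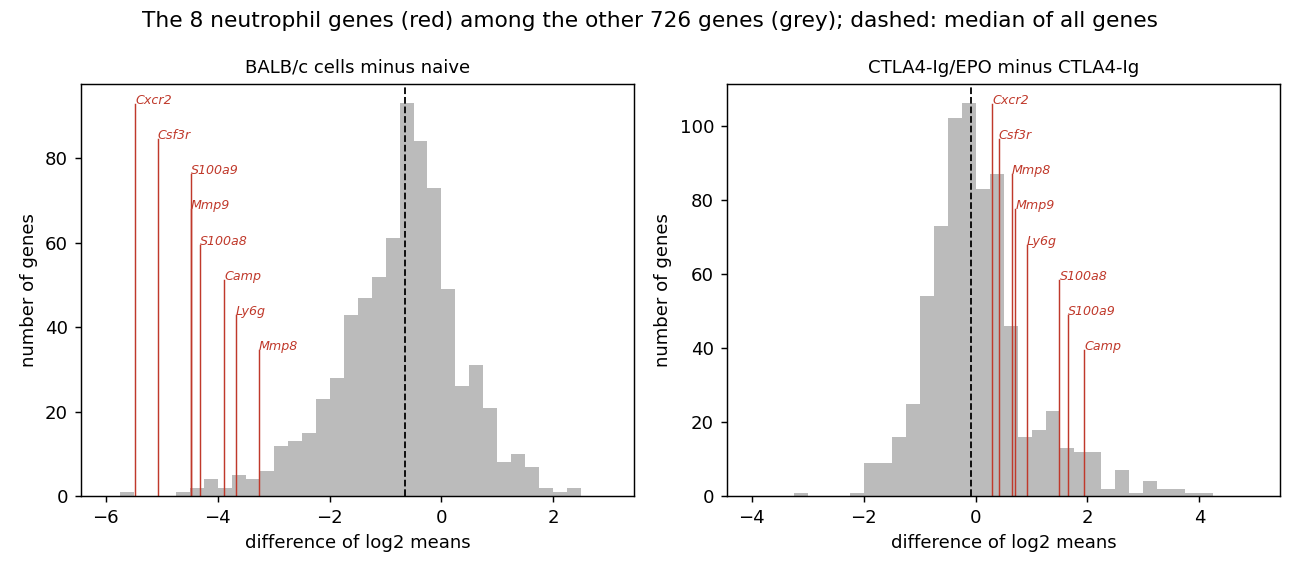
Number of genes (y axis) by difference of log2 means (x axis) for BALB/c cells minus naive (left) and CTLA4-Ig/EPO minus CTLA4-Ig (right), with the 8 neutrophil genes as red lines and the median of all genes dashed. The neutrophil genes lie in the lower tail on the left, from -5.47 to -3.26, and on the upper side on the right, from 0.30 to 1.94.

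The promoters of the genes that rose most with EPO and of those that fell furthest with BALB/c cells are shown because these sets moved together. They come from RefSeq (GRCm38.p6) as windows of 300 bases, 250 before and 50 after the gene's start. A window was matched for 7 of the 8 genes, with 2 overlapping windows for *Ly6g*, while *Mmp9* is named only. Capitals mark the C/EBP core TTNNGNAA and the PU.1 core GAGGAA on either strand, 2 motifs of factors that act in the myeloid lineage, and no match of one overlapped the other in these windows. Of all 32851 windows, 40.7% hold the first and 28.3% the second, and of the 8 windows of these genes 5 and 6 do. The *S100a8* window is chr3:90668821-90669120 on the + strand and the *S100a9* window chr3:90695672-90695971 on the - strand. The *Camp* window is chr9:109849407-109849706 on the - strand. The *Cxcr2* window is chr1:74153744-74154043 and the *Csf3r* window chr4:126024409-126024708, both on the + strand.
S100a8: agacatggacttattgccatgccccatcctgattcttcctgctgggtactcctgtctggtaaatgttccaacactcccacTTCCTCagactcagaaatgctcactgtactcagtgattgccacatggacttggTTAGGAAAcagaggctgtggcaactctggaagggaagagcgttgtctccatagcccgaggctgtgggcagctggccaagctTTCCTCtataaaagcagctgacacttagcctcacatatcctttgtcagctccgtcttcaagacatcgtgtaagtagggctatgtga
S100a9: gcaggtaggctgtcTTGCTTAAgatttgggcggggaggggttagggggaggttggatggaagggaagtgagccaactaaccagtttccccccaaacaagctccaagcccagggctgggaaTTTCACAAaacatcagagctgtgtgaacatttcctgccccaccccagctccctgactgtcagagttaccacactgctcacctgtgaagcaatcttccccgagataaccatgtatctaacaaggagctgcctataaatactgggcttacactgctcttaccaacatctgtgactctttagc
Camp: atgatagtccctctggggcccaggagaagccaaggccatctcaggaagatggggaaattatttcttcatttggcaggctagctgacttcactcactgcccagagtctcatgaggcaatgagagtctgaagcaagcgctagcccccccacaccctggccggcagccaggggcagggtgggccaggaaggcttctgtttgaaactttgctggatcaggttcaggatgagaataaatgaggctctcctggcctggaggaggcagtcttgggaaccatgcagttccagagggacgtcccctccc
Cxcr2: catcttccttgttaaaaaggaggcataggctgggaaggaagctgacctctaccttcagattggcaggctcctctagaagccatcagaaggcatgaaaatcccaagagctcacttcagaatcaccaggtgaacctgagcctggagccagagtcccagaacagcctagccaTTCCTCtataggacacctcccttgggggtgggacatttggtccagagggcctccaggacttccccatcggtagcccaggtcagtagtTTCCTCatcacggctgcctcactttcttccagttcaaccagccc
Csf3r: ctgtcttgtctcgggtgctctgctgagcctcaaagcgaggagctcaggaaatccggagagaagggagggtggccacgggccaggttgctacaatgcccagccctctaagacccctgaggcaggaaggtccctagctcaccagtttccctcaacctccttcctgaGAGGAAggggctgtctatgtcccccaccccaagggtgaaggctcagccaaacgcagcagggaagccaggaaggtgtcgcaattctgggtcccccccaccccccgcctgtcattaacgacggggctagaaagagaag
The *S100a8* window holds 1 match of the C/EBP core and 2 of the PU.1 core, and the *S100a9* window 2 of the first and 0 of the second. *Cxcr2* has 2 matches of the PU.1 core and *Csf3r* has 1, both with 0 of the C/EBP core, and neither set of letters is in the *Camp* window. A match describes the sequence and is not a measured binding site.

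Within groups, the genes did not all vary together. As a description over the 16 mice, with each value taken as its deviation from the group mean, Pearson's r between pairs of the 8 genes ran from 0.30 to 0.97 with a median of 0.77, against a median of 0.06 over all pairs of genes. *S100a8*, *S100a9*, *Camp*, *Mmp8* and *Ly6g* had r of at least 0.87 with each other. On the scale of total counts the lowest of these was 0.78, for *Ly6g* with *Mmp8*. *Cxcr2* and *Csf3r* correlated with each other (r = 0.79) and less with *Ly6g* (0.30 and 0.33) and *Camp* (0.32 and 0.36), while their r with *Mmp8* was 0.69 and 0.63. CTLA4-Ig mouse 2 deviated most of all mice in both *Cxcr2* (0.93) and *Csf3r* (0.73), and r was not computed without this mouse. The pairs share the scaling factor of their mouse, and on the total-count scale the values were 0.75 for *Cxcr2* with *Csf3r*, 0.03 for *Cxcr2* with *Ly6g* and 0.93 for *Ly6g* with *Camp*. The lowest on that scale was -0.01, for *Csf3r* with *Ly6g*. The r of *Mmp9* with *Ly6g* was 0.74 as deposited and 0.42 there. Its r with *S100a8*, *S100a9*, *Mmp8* and *Camp* ran from 0.54 to 0.64 there, against 0.76 to 0.83 as deposited.

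**Figure D5:**
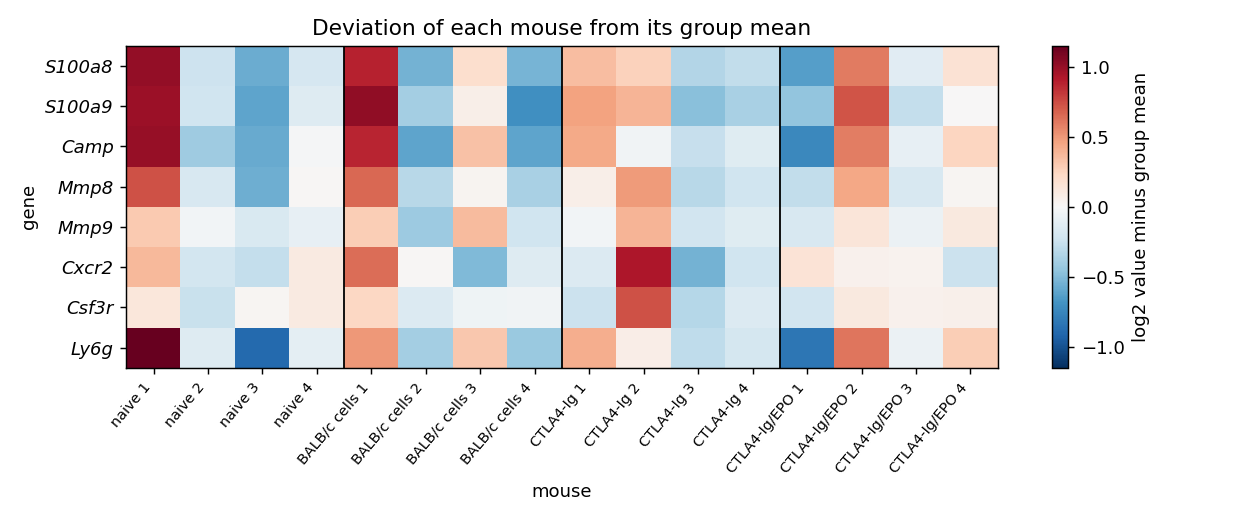
Log2 value minus the group mean (colour) of each gene (y axis) in each mouse (x axis), with lines between groups. CTLA4-Ig mouse 2 is high in *Cxcr2* and *Csf3r* and near its group mean in *Ly6g*. It is above that mean in *Mmp8* (0.49), *Mmp9* (0.39), *S100a9* (0.39) and *S100a8* (0.27). Naive mouse 1 is the highest naive mouse in all 8, but only 0.13 above its group mean in *Csf3r*.

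The genes outside the 8 whose 4 group means were most like the mean of the 8, by root mean square difference, were *C5ar1* (0.14), *Ccr1* (0.27), *Trem1* (0.31), *Cxcr1* (0.33) and *Il1rap* (0.35). By mean correlation of deviations with the 8 over 16 mice they were *C5ar1* (0.81), *Trem1* (0.80), *Il15ra* (0.80), *Anxa1* (0.79) and *Chil3* (0.79). *C5ar1*, the receptor for complement C5a, and *Trem1*, an amplifier of myeloid activation, were in both sets.

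The other genes below came from lists chosen with earlier results of these data known, so their counts are descriptions and not independent support. The counts are read against all 734 genes. Of these, 87 were called higher and 429 lower with BALB/c cells, and 167 higher and 208 lower with EPO. Of 40 other later-stage neutrophil genes listed, 21 were in the table. All 21 were lower with BALB/c cells than in naive mice, where 58.4% of all genes were, with a median log2 difference of -2.25 against -0.65 over all genes. *Acod1*, the itaconate enzyme, fell by 5.58 on the log2 scale, *Trem1* by 4.49, the histidine decarboxylase gene *Hdc* by 4.30 and *C5ar1* by 4.23. With EPO 8 of the 21 rose, 3 fell and 10 did not pass, where 22.8% of all genes rose, with a median of 0.33 against -0.07 over all genes. The formyl peptide receptor genes *Fpr2* (SE 0.25, limma adjusted p = 0.000163) and *Fpr1* rose, the latter by 1.32, *Fcgr4* by 1.20 and the leukotriene receptor gene *Ltb4r1* by 0.95. *Il1r2*, the interleukin 1 decoy receptor, fell by 3.08 (SE 0.19, limma adjusted p = 1.23e-08), and *Il1b* fell by 0.81. With CTLA4-Ig 0 of the 21 were called. These values come from the whole CD11b+ selection, and the part of cells other than neutrophils in them was not tested.

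Of 15 primary granule and progenitor genes, 7 were measured, and 4 fell and 2 rose with BALB/c cells, where 58.4% of all genes fell, while 4 rose and 2 fell with EPO, where 22.8% of all genes rose. With BALB/c cells the primary granule genes *Elane*, *Ctsg* and *Mpo* fell by 3.08, 2.91 and 2.86 on the log2 scale, *Cebpa* fell by 1.60, and *Flt3* and *Kit* rose by 0.96 and 0.63. With EPO, *Ctsg*, *Mpo* and *Elane* rose by 3.12, 2.88 and 2.54, *Cebpa* by 0.49, and *Flt3* and *Kit* fell by 0.85 and 0.47. On the deposited scale the rises of *Ctsg*, *Mpo* and *Elane* with EPO were larger than those of the 8 later genes, whose largest was 1.94, and the difference between them was not tested.

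Of 27 ligands and partners of the 8 genes, 16 were measured, and 14 fell and 1 rose with BALB/c cells, where 58.4% of all genes fell. *Cxcl2* and *Cxcl3*, ligands of *Cxcr2*, fell by 3.92 and 2.41, *Fpr2* by 3.38 and *Csf1* by 3.10, and *Cd36* rose by 0.65. With EPO 2 of the 16 rose and 4 fell, where 22.8% of all genes rose. *Tlr4*, a receptor for *S100a8* and *S100a9*, rose by 1.91 (SE 0.11, limma adjusted p = 1.01e-08) and *Fpr2*, which is in both lists, rose too. *Cxcl12* fell by 0.92 and its receptor *Cxcr4*, which retains neutrophils in bone marrow, by 0.72.

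Of 15 transcription factors of the neutrophil lineage, 9 were measured, and 6 fell and 2 rose with BALB/c cells, near the 58.4% of all genes that fell, with a median of -0.69 against -0.65 over all genes. *Cebpb* fell by 2.61, *Cebpd* by 2.35, *Cebpa* by 1.60 and *Stat3* by 1.21, while *Irf4* and *Klf4* rose by 1.29 and 0.28. With EPO 2 of the 9 rose, where 22.8% of all genes did. *Cebpa* and *Cebpb* rose by 0.49 and 0.47, and *Irf4*, *Klf4*, *Stat5b* and *Stat3* fell by 1.92, 0.92, 0.39 and 0.25. Of 12 cell division genes 4 were measured, and all 4 fell with BALB/c cells (median -0.69, beside -0.65 over all genes). The same 4 rose with EPO, *Birc5* by 1.88, *Ccnb2* by 1.54, *Top2a* by 1.18 and *Cdc20* by 1.16. With CTLA4-Ig none of the genes of these lists was called.

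Markers of other cells in the selection moved in the same comparisons. Their called counts are read against all 734 genes. Of these, 58.4% were called lower and 87 genes higher with BALB/c cells, and 22.8% higher and 208 genes lower with EPO. Of 13 red pulp macrophage markers 9 were measured, led by *Vcam1*. Their summed normalized level was 9666, 8703, 8175 and 10563 in naive mice and 10707, 9153, 9477 and 11065 with BALB/c cells. It was 8382, 8754, 9338 and 8309 with CTLA4-Ig and 27491, 26198, 36361 and 29995 with CTLA4-Ig/EPO, and 9 of the 9 rose with EPO, while 3 rose and 2 fell with BALB/c cells. The EPO group was thus above all other mice in this sum, while naive mice were not above BALB/c cells. As a share of counts this sum was at most 1.02% in naive mice, 1.72% to 2.10% with BALB/c cells and 4.81% to 7.84% with EPO. Of 9 classical monocyte markers 6 were measured, led by *Chil3*, with sums of 37841, 25959, 20432 and 27020.0 in naive mice and 7088, 5577, 6524 and 6366 with BALB/c cells. The sums were 6833, 6968, 6112 and 6280 with CTLA4-Ig and 9777, 15453, 11415 and 13098 with CTLA4-Ig/EPO. On this scale the monocyte sum had the group order of the neutrophil genes, but as a share of counts naive mice (2.18% to 2.61%) and the EPO group (2.06% to 2.83%) overlapped. Of these 6 genes, 6 fell with BALB/c cells, while 4 rose and 1 fell with EPO. Of 8 eosinophil markers 6 were measured, led by *Prg2*, with sums from 1161 to 2568 in naive mice, from 319 to 582 with BALB/c cells, from 309 to 394 with CTLA4-Ig and from 2361 to 3324 with EPO, and 5 fell and 1 rose with BALB/c cells, while 4 rose and 1 fell with EPO. The 6 of 8 CD11b+ cell markers measured, led by *Tyrobp*, summed to between 23846 and 29357 in naive mice, between 7712 and 8737 with BALB/c cells, between 8826 and 10350 with CTLA4-Ig and between 13460 and 15104 with EPO, and 6 fell with BALB/c cells, while 4 rose with EPO. As a share of counts, these CD11b+ cell markers were lower in naive mice (1.91% to 2.54%) than with EPO (2.75% to 3.22%), so the order of these groups depended on the scale.

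B and T cell markers rose with BALB/c cells and fell with EPO. Over all 734 genes, 58.4% were called lower and 87 genes higher with BALB/c cells, and 22.8% higher and 208 genes lower with EPO. With BALB/c cells, the counts of natural killer, basophil or mast cell and erythroid or megakaryocyte markers called lower were near that share. Those counts say little about these cells. The B cell marker *Ms4a1*, 1 of 8 listed, had normalized levels from 877 to 991 in naive mice, from 2342 to 2844 with BALB/c cells, from 2181 to 2654 with CTLA4-Ig and from 1174 to 1745 with EPO. The 3 of 10 T cell markers measured, led by *Cd28*, summed to between 397 and 610.4 in naive mice, between 1048 and 1283 with BALB/c cells, between 985 and 1090.2 with CTLA4-Ig and between 277 and 401 with EPO. The 7 of 9 dendritic cell markers, led by *Ccr7*, summed to between 1832 and 3464 in naive mice, between 5668 and 5984 with BALB/c cells, between 5176 and 6110.0 with CTLA4-Ig and between 2464 and 2902 with EPO, and 4 rose and 1 fell with BALB/c cells, while 1 rose and 3 fell with EPO. The 3 of 8 natural killer cell markers, led by *Gzma*, lay between 7252 and 10544 in naive mice, 4303 and 7749 with BALB/c cells, 8291 and 12239.8 with CTLA4-Ig and 4929 and 6576 with EPO, and 2 fell with BALB/c cells and 3 fell with EPO. Their share of counts was 0.522% to 1.10% in naive mice and 0.809% to 1.45% with BALB/c cells, so this fall was not seen on that scale. The 7 of 8 basophil or mast cell markers, led by *Cma1*, lay between 581 and 771 in naive mice and between 394 and 568 with BALB/c cells or CTLA4-Ig, and between 426 and 552 with EPO. Their share was 0.0472% to 0.0780% of counts in naive mice and 0.0741% to 0.0831% with BALB/c cells, so this sum too was not lower on that scale. By the test, 5 of these 7 fell and 1 rose with BALB/c cells, and 3 rose and 2 fell with EPO. The 2 of 11 erythroid or megakaryocyte markers, led by *Gata1*, lay between 65.8 and 141 in naive mice, between 22.6 and 39.5 with BALB/c cells or CTLA4-Ig and between 101 and 135 with EPO, and 1 fell with BALB/c cells, while 2 rose with EPO. The share of these erythroid or megakaryocyte markers was 0.0062% to 0.0101% of counts in naive mice and 0.0043% to 0.0069% with BALB/c cells, so these groups overlapped on that scale. None of the measured markers was at 3 counts or fewer in all mice of a group. The part of these cells in the values of the 8 neutrophil genes was not tested.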

How the data were processed

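Gene expression in CD11b+ spleen cells of 16 mice was measured with the nCounter panel. The authors normalized the raw counts in limma and deposited log2 values for 734 genes, 1 column per mouse. What the factor per mouse was computed from, and any background subtraction, is not given in the sources used here. The deposited values are the log2 of whole numbers times 1 factor per mouse (100% of values, to within 0.001), so counts were recovered by dividing by the lowest value of each mouse, a floor of 1 that cannot be told from 0. No pair of mice of a group agreed within sampling noise (chi-square per degree of freedom at least 5.24).

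A limma model (3.58.1, R 4.3.3) of 4 group means was fitted to all genes without a filter, two-sided, with Benjamini-Hochberg adjustment over all genes and a threshold of 0.05. It was tested on simulated data first, set up for CTLA4-Ig/EPO minus CTLA4-Ig. There it recovered 64.5% of 200 changed genes, and 5.84% of its calls were false. Recovery was 69% at a log2 difference of 1 and 82% at 2, in either direction, so a gene that is not called may still differ. Genes were named as the 8 genes, then the 4 largest changes in each direction per list among called genes without overlap. The 8 genes and the lists were chosen with earlier results of these data known. The titles number the mice 1 to 4, and in the EPO and CTLA4-Ig groups same-numbered mice deviated together (r of 0.156, 0.184, 0.174 and 0.143 over genes), which is the only ground for treating the mice of these groups as pairs. Of the differently numbered pairs, CTLA4-Ig/EPO mouse 2 with CTLA4-Ig mouse 1 had a higher r (0.192), and the others ran from -0.287 to 0.096. Alternatives changed the threshold (unadjusted p, or a minimum of 1.5-fold), the model (2 groups at a time, robust trended variances, weights per array, limma-voom on recovered counts, the replicate number as a block) and the test (the methods' t-test, which the study gives for 2 groups in general, while it names limma for these data). They also used 4 other scalings, dropped the 25% of genes with the lowest mean, took *Csf3r* as the denominator and left out each mouse in turn. Leaving out naive mice was chosen after seeing the data. Python 3.11.15 with pandas 2.3.3 and matplotlib 3.10.9 was used for counts and figures.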

Additional observations from a re-analysis of the deposited data

Results flagged for a closer look

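*Csf3r* in CTLA4-Ig mouse 2 stood apart from the other 3 mice of its group. Its log2 value was 8.51, against 7.45 to 7.62 in the others, and the gap to the nearest of them was 0.835 of the whole range of the group, above Dixon's critical value at the 95% level. It was 1 of 32 pairs of a gene and a group examined, and chance alone puts some pairs above that value.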

How the results depend on the processing

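All 8 genes were called lower than in naive mice under every alternative for BALB/c cells. For CTLA4-Ig/EPO against naive mice 7 were, per total count and after quantile normalization, and 8 under the others. With CTLA4-Ig, 1 of the 8 passed an unadjusted p, and over all genes 70 did, 76 with the methods' t-test unadjusted, 1 without naive mice, and 0 to 1 when a mouse was left out (1 without BALB/c cells mouse 1 or 3). With EPO, 7 of the 8 were called with array weights, 7 per total count without the 8 genes, 7 with limma-voom on recovered counts, 6 unadjusted, 6 with only the 2 groups compared, 6 without the 25% of genes with the lowest mean, 6 per total count, 5 without naive mice, and 4 to 7 when a mouse was left out (7 without CTLA4-Ig mouse 2). The F-test called 384 of all genes without naive mice, against 626 with them, and tested 3 groups on fewer samples. Relative to *Ly6g*, 1 of 7 genes was called higher with EPO. The number was 3 with *Csf3r* as denominator, where 13% of all genes were called higher, 0 with the replicate block and 0 to 1 when a mouse was left out. With BALB/c cells 2 of 7 were called lower relative to *Ly6g*, and 2 to 4 when a mouse was left out (4 without naive mouse 1). With *Csf3r* as denominator 5 were called, all higher, where 99.5% of all genes were. The causes of these changes were not tested. The replicate block changed no other count of the 8 genes, and with it 400 genes were called with EPO, against 375 without. In the other comparisons same-numbered mice did not all reach an r of 0.1, although every r was positive for CTLA4-Ig against BALB/c cells (lowest 0.016). The replicate block called 531 genes for BALB/c cells against naive mice and 0 for CTLA4-Ig. No called difference of the 8 genes changed sign under an alternative. With CTLA4-Ig, where none was called, the sign of *S100a8*, *S100a9*, *Camp*, *Mmp8* and *Mmp9* did under some, *S100a8* from -0.06 to 0.24 and *S100a9* from -0.01 to 0.33 without BALB/c cells mouse 1. Over all genes, which direction had more calls depended on the scaling. The group size of 4 and 1 probe per gene limit the precision, the origin of the scaling factor is unknown, and *Ly6g* had counts down to 44.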
